A study of Schizosaccharomyces pombe with 21 samples.

Results

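Messenger RNA of fission yeast, Schizosaccharomyces pombe, was compared between wild-type cells kept for 2 h and for 1 h without phosphate. The comparison takes the 3 wild-type libraries at 2 h against the 3 at 1 h, which is 6 of the 21 libraries in the series, and all genes were eligible. Of 6988 gene identifiers, 6066 had enough counts to be tested. The wild type is strain Sp1 of mating type h-, grown to log phase at 30 °C in ePMGT(+PO4), a phosphate-replete medium, and moved to ePMGT(–PO4). Both sides of the comparison were therefore already past the change of medium, and they differ only in the time spent without phosphate. The wild type at 0 h (replete medium) and at 4 h is used below for the course around this interval. HASX, strain BS1453, is used for the same interval in a mutant at 1 and 2 h without phosphate. HASX is also h- and carries the mutant allele asp1-H397A::natMX together with 3 deletions: aps1∆::kanMX, siw14∆::hygMX and, for an SPX-domain gene called pqr1 in the annotation, spx1∆::ura4MX. The first 3 of these alleles take out enzyme activities that break down inositol pyrophosphates. The groups analysed here include no culture moved to fresh replete medium, so time after the transfer and time without phosphate cannot be told apart. The labels call the 3 replicates of each group biological replicates, and each genotype is a single strain.

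Fission yeast answers a lack of phosphate by inducing the phosphate acquisition regulon: pho1 encodes a secreted acid phosphatase, pho84 a phosphate transporter and tgp1 a transporter of glycerophosphodiesters. The zinc-finger factor Pho7 drives these genes, and in replete cells transcription of long non-coding RNAs across their promoters holds them down. Inositol pyrophosphates act on the termination of those non-coding RNAs and so on the level of the regulon. Over longer starvation growth slows, and genes of ribosome production give way to genes of stress, nutrient recycling and entry into sexual differentiation.

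Libraries held 20429347, 17481009 and 18433913 counts at 1 h and 23680823, 18883118 and 23413179 counts at 2 h. Levels are given as CPM, counts scaled to library size and corrected for composition, changes are log2 values with their standard error (SE), and a gene was called higher or lower when the Benjamini-Hochberg adjusted p of edgeR's quasi-likelihood test over all genes was under 0.05. The SE was worked back from that test, as the size of the log2 change divided by the square root of the F statistic. The 1 h libraries lay close together, while those at 2 h were spread out. On the first principal component of the 12 wild-type libraries, which held 58.3% of the variance, the 1 h libraries were at -14.9, -14.5 and -17.8, and the 2 h libraries at 15.1, 2.50 and -10.6 for replicates 1, 2 and 3. Replicate 3 at 2 h was thus nearest to the 1 h libraries and replicate 1 farthest. The loci altered in HASX were transcribed in the wild type, with a summed level of 754 to 777 CPM at 1 h and 715 to 757 CPM at 2 h for asp1, aps1, siw14 and pqr1, and ura4 had 0 counts in all 6 libraries. Of 6 genes specific to h- (M) cells all had counts, and their summed level went from 311 to 366 CPM at 1 h to 433 to 446 CPM at 2 h. Of these, mfm1 and mam1 were called higher, with log2 changes of 0.58 and 0.54. The others were not called: mfm2 and mam2 had changes of 0.37 and 0.50, and mfm3 and sxa2 of -0.07 and -0.26. The h+ (P-cell) genes map2, map3, map4 and sxa1 had mean levels of 3.02, 16.2, 37.0 and 674 CPM at 1 h. Among them only map4 was called, higher at 2 h, with a log2 change of 0.40 (edgeR adjusted p = 0.0314). The summed level of 4 h+ genes went from 722 to 737 CPM at 1 h to 813 to 893 CPM at 2 h, most of it from sxa1, and their part in the mating results was not tested. The h+ genes matPc and mat1-Pi, also chosen for this check, were not found by name among the identifiers. Levels in bulk RNA do not tell a change in the number of cells of a kind from a change in RNA per cell.

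At 2 h, 309 genes were higher (5.09% of those tested) and 179 were lower (2.95%) than at 1 h, together 488 genes (8.04%). Most changes were small: 267 of the 309 rises and 168 of the 179 falls were under 2-fold, and the median log2 change was 0.47 among the rises and -0.44 among the falls. By at least 2-fold, 42 genes were higher (0.692%), of which 32 were protein-coding (0.644% of protein-coding genes), and 11 were lower (0.181%), of which 2 were protein-coding (0.0402%). Counts in the gene lists below are to be read against these shares. In all 488 genes called, the 3 libraries at 2 h did not overlap with those at 1 h, as was so for 2277 of the 6066 genes tested. The 2 h replicates did not contribute alike. Replicate 1 lay farthest from the 1 h mean in 195 of the 309 risen genes, and replicate 3 lay nearest in 210 of them; among the 179 that fell these numbers were 78 and 66.

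The counts of small changes depended on single libraries and on the scaling. Without replicate 3 at 2 h, 839 genes were higher and 640 lower. Leaving out replicate 1 or 2 at 2 h gave 178 or 153 higher and 78 or 59 lower, and leaving out replicate 1, 2 or 3 at 1 h gave 148, 172 or 138 higher and 55, 56 or 54 lower. The log2 change of every called gene kept its sign in each of these 6 fits. The lack of overlap made this nearly certain beforehand, so it is no separate support. With DESeq2 size factors in place of TMM the split was 394 higher and 86 lower, so the share of rises among the calls went from 63.3% to 82.1%. The median log2 change of all genes tested was -0.08 with TMM and -0.01 with size factors, a shift of 0.07, and it was 0.02 in a fit to all 21 libraries, a shift of 0.11. Small changes, the falls above all, are to be read against these shifts. With TMM, 3800 of the 6066 genes tested had a log2 change below 0 and 2266 had one above 0. Counts of signs in the gene lists are to be read against these numbers.

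**Figure D1:**
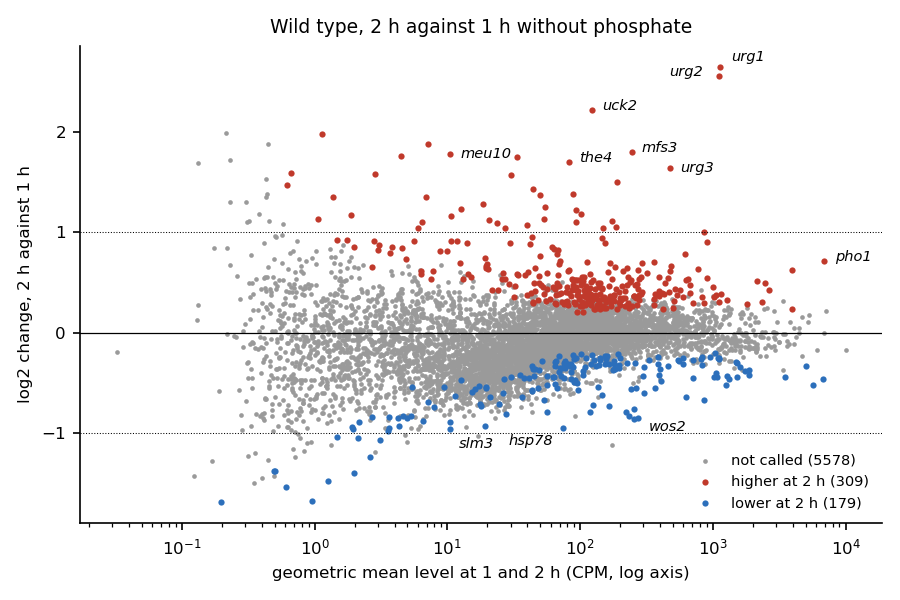
Log2 change from 1 to 2 h without phosphate (vertical axis) against the geometric mean of the mean levels at 1 and 2 h in CPM (horizontal, log axis) in the wild type, 1 point per gene; red and blue mark the 309 genes higher and the 179 lower at 2 h, dotted lines mark 2-fold, and 1 gene with no counts at 1 h is not drawn. The urg genes, uck2 and mfs3 stand above the others at their levels, and the falls stay mostly within 2-fold.

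The phosphate acquisition regulon went on rising between 1 and 2 h. For pho1 (SPBP4G3.02) the 1 h libraries gave 5287, 5869 and 5035 CPM and the 2 h libraries 9346, 8997 and 8177 CPM. For pho84 (SPBC8E4.01c) they gave 3165, 3380.2 and 3028 CPM and then 5158, 4808 and 4839 CPM, and for tgp1 (SPBC1271.09) 273, 307 and 262 CPM and then 460.4, 494 and 422 CPM. In each of the 3 genes every 2 h library was above every 1 h library. The log2 changes were 0.71 (SE 0.09, edgeR adjusted p = 0.000618) for pho1, 0.63 (SE 0.09, edgeR adjusted p = 0.00118) for pho84 and 0.71 (SE 0.09, edgeR adjusted p = 0.000831) for tgp1. In the libraries outside this interval, mean levels at 0 h and 4 h were 1328 ± 130.0 and 19802 ± 616 CPM (SD, n = 3) for pho1, 1462 ± 187 and 7115 ± 132 CPM for pho84, and 58.5 ± 8.01 CPM and 1054, 1075 and 1104 CPM (each library) for tgp1. The level at 2 h therefore lay between those at 1 and 4 h for all 3 genes. These calls were kept in all 12 alternative fits.

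Of 10 other phosphate and polyphosphate genes, 1 rose and 1 fell, with a median log2 change of 0.02. The transporter gene pho841 (SPBC1683.01) went from 215, 227 and 213 CPM to 302, 318 and 293 CPM, with no overlap and a log2 change of 0.48 (SE 0.07, edgeR adjusted p = 0.00229). The transporter gene pho842 (SPAC23D3.12) went the other way, from 1088, 1164 and 1120.0 to 998, 959.8 and 967 CPM, with -0.21 (edgeR adjusted p = 0.0431); this call was kept in none of the 12 alternatives. Among 7 enzymes of inositol pyrophosphate metabolism only ipk1, which makes inositol hexakisphosphate, was called, at 0.39 (edgeR adjusted p = 0.0373), and its call was kept in 6 of 12 alternatives.

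**Figure D2:**
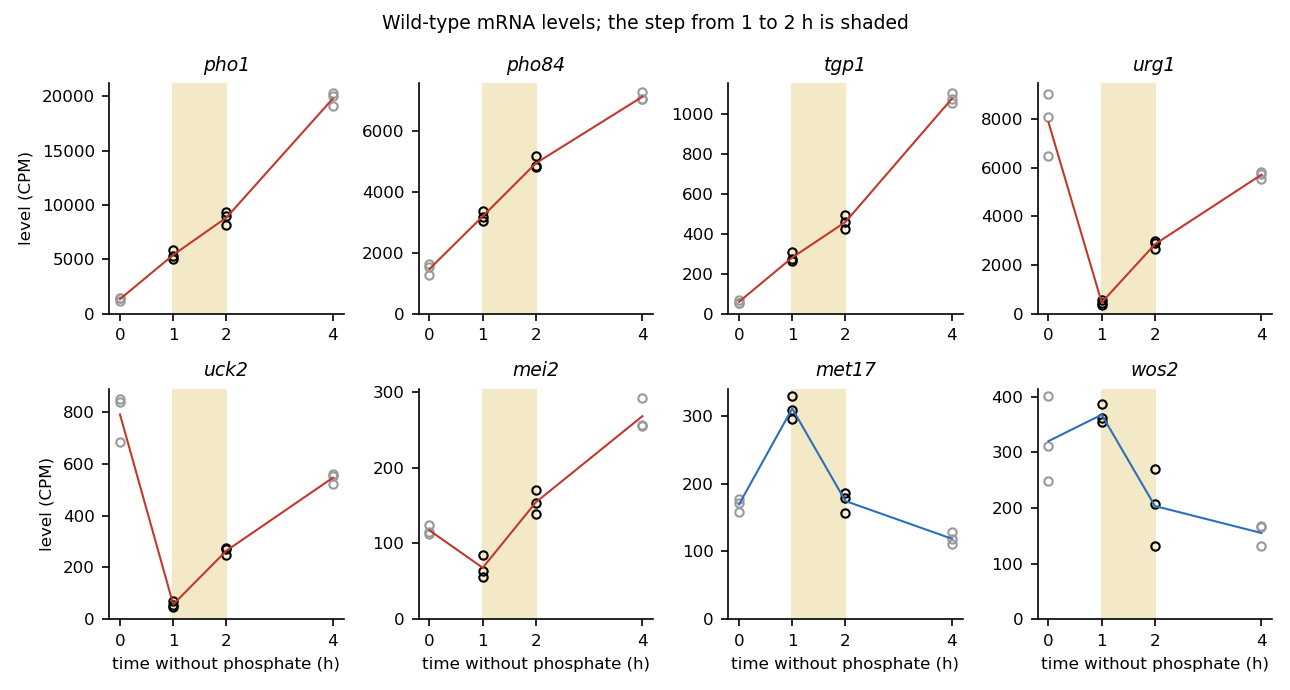
Levels in CPM (linear axes from 0) of 8 genes in wild-type libraries against hours without phosphate; circles are single libraries (black at 1 and 2 h, grey at 0 and 4 h), lines join the means of 3 (red where the gene rose from 1 to 2 h, blue where it fell), and the interval from 1 to 2 h is shaded. The regulon genes pho1, pho84 and tgp1 climb throughout, urg1 and uck2 climb from a low point at 1 h, mei2 climbs from 1 h on after a lower mean there than at 0 h, met17 falls from its highest mean at 1 h, and the 3 wos2 values at 2 h are far apart.

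Several of the largest rises belonged to the uracil-regulated genes, named for their induction by uracil, and to pyrimidine salvage. The GTP cyclohydrolase II gene urg1 (SPAC1002.19) went from 438, 571 and 356 CPM at 1 h to 2925, 2969.7 and 2665 CPM at 2 h, and urg2 (SPAC1002.17c), annotated as a putative uracil phosphoribosyltransferase, from 453, 559 and 369 to 2819, 2795 and 2556 CPM. The uracil phosphoribosyltransferase gene uck2 (SPAC1399.04c) went from 54.2, 69.0 and 47.8 to 277, 269.6 and 248 CPM, and urg3 (SPAC1002.18) from 268, 312 and 229 to 886, 841 and 809 CPM. In these 4 genes the lowest library at 2 h was more than 2-fold above the highest at 1 h. The log2 changes were 2.65 (SE 0.16, edgeR adjusted p = 9.07e-07) for urg1, 2.57 (SE 0.16, edgeR adjusted p = 9.07e-07) for urg2, 2.22 (SE 0.12, edgeR adjusted p = 8.44e-07) for uck2 and 1.65 (SE 0.12, edgeR adjusted p = 4.39e-06) for urg3. The uridine ribohydrolase gene urh1 (SPBC1683.06c) rose from 27.4, 33.1 and 22.2 to 48.9, 61.8 and 63.4 CPM, a log2 change of 1.08 (SE 0.18, edgeR adjusted p = 0.00321). Mean levels at 0 h and 4 h were 7879.6 ± 1298 and 5719 ± 155 CPM for urg1, 792 ± 93.1 and 547 ± 20.9 CPM for uck2 and 211 ± 50.2 and 131 ± 6.59 CPM for urh1, so that 2 h was a point on a partial return from the low level at 1 h.

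These 5 genes were the only rises among 12 genes of the uracil-regulated and nucleobase salvage list, whose median log2 change was 0.07, against -0.08 over all genes. The list's only fall was apt1, the gene of adenine phosphoribosyltransferase, from 452 ± 17.9 to 352 ± 26.5 CPM (SD, n = 3), a log2 change of -0.36 (edgeR adjusted p = 0.0183). The 5 rises were called in each fit that left out 1 library. Of 5 genes of de novo pyrimidine synthesis, ura5 and ura3 fell by 0.30 and 0.26 on the log2 scale, calls kept in 3 and 2 of 12 alternatives. Of 12 genes of purine synthesis, gua1 fell at -0.25 (edgeR adjusted p = 0.0369), kept in 1 of 12.

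Many genes of hexose uptake and of glucose repression rose. In the list of hexose transport and glucose-repressed genes 10 of 20 rose and 0 fell, with a median log2 change of 0.42; between 5 and 14 were called when 1 library was left out. The dihydroxyacetone kinase gene dak2 (SPAC977.16c) went from 31.2, 26.6 and 34.9 to 82.9, 82.2 and 75.6 CPM, a log2 change of 1.38 (SE 0.13, edgeR adjusted p = 5.8e-05). The hexose transporter genes ght1, ght5 and ght4 had log2 changes of 1.10, 0.56 and 0.46; ght5, a high-affinity glucose transporter, went from 245, 237 and 232 to 347, 339 and 366 CPM. The secreted invertase gene inv1 rose from 9.75 ± 0.473 to 15.8 ± 1.43 CPM and dak1 from 384 ± 26.4 to 588 ± 43.3 CPM. The malate permease gene mae1 and the malic enzyme gene mae2 rose by 0.33 and 0.50 on the log2 scale.

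Changes in mitochondrial carbon metabolism were small. All 17 TCA cycle genes had log2 changes above 0, against 2266 of the 6066 genes tested, with a median of 0.23. Of the 17, 4 were called: the citrate synthase gene cit1 at 0.47 (edgeR adjusted p = 0.00295), the aconitase gene aco1 at 0.38 (edgeR adjusted p = 0.0183), the 2-oxoglutarate dehydrogenase gene kgd1 at 0.38 (edgeR adjusted p = 0.0191) and mdh1, a malate dehydrogenase gene, at 0.37 (edgeR adjusted p = 0.0302). The number called was between 1 and 14 when 1 library was left out. None of 47 nuclear genes of the respiratory chain and ATP synthase was called, and their median was 0.04; without replicate 3 at 2 h 10 rose and 3 fell, with only the 6 libraries compared 6 rose, and with DESeq2 size factors 2 rose. Of 18 glycolysis and fermentation genes 3 rose and 2 fell; with 1 library left out 0 to 6 rose and 1 to 2 fell, and none fell in the fit to all 21 libraries. The pyruvate decarboxylase gene pdc201 rose from 15.8 ± 2.82 to 25.4 ± 3.65 CPM, while the enolase gene eno101 fell from 4046 ± 264 to 2978 ± 80.1 CPM, a log2 change of -0.44 (edgeR adjusted p = 0.00467). Mean levels of eno101 at 0 h and 4 h were 3905 ± 207 and 3939 ± 325 CPM, so its mean was lowest at 2 h. In this list 15 of 18 genes were higher and 0 lower at 4 h than at 0 h, against 31.1% and 29.3% of all genes. Annotated as an L-lactate dehydrogenase, SPAPB1A11.03 rose from 3.39, 3.48 and 4.30 to 14.6, 17.1 and 9.56 CPM, at 1.88 (SE 0.26, edgeR adjusted p = 0.00114).

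Part of the genes of mating and early meiosis rose, a programme that fission yeast turns on when nutrients run out. Of 28 genes in the list 9 rose and 1 fell, with a median log2 change of 0.40, and 6 to 16 rose when 1 library was left out. The gene of the RNA-binding protein Mei2, which commits cells to meiosis, mei2 (SPAC27D7.03c), went from 63.5, 84.5 and 55.6 to 139, 171 and 154 CPM, with no overlap and a log2 change of 1.19 (SE 0.13, edgeR adjusted p = 0.000195). The pheromone signalling regulator gene rgs1 (SPAC22F3.12c) went from 37.8, 41.8 and 34.6 to 66.3, 71.2 and 57.2 CPM, at 0.77 (SE 0.10, edgeR adjusted p = 0.000932). Along the same pathway, the MAP kinase gene spk1 had a log2 change of 0.61, the Ras exchange factor gene ste6 0.61, the transcription factor gene ste11 0.52, the M-factor exporter gene mam1 0.54 and the G-protein subunit gene gpa1 0.41. The meiotic cohesin gene rec8 was the fall, from 0.295, 0.290 and 0.490 to 0.130, 0.108 and 0.0835 CPM, and its call was kept in none of its 11 alternatives. Of 5 spore and late-meiosis genes, meu10 and isp3, both tied to the spore wall, rose. For meu10 (SPCC1223.12c) the libraries gave 4.47, 5.10 and 7.25 and then 18.3, 20.8 and 18.8 CPM, a log2 change of 1.78 (SE 0.18, edgeR adjusted p = 7.48e-05). The other 3, spo6, mde3 and spn6, had mean levels of 3.21 CPM or less at both times, and mde3 was too low to be tested. The summed level of these 5 genes was 24.6 to 28.8 CPM at 1 h and 47.6 to 51.1 CPM at 2 h.

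Nitrogen-regulated genes also rose in part: 5 of 19 were higher and 0 lower, with a median of 0.24 and 3 to 11 rises when 1 library was left out. At 4 h against 0 h, 11 of the 19 were lower and 6 higher, against 29.3% and 31.1% of all genes. In HASX from 1 to 2 h, 13 were lower and 1 higher, against 20.0% and 19.0%. The amino acid permease gene per1 rose from 36.5 ± 6.15 to 57.0 ± 2.53 CPM, the vacuolar protease gene isp6 from 219 ± 20.7 to 338 ± 20.3 CPM, the ammonium transporter gene amt1 from 86.8 ± 16.3 to 122 ± 10.6 CPM, the glutamine synthetase gene gln1 from 252 ± 1.07 to 329.6 ± 15.7 CPM and isp7 from 134 ± 17.6 to 172 ± 12.1 CPM. Of 29 autophagy genes 3 rose, led by the autophagy kinase gene atg1 at 0.43 (edgeR adjusted p = 0.00802), and 0 fell; with 1 library left out 1 to 5 rose. In the Ecl family, small proteins linked to chronological lifespan, ecl3 and ecl2 went opposite ways. The libraries gave 32.2, 27.0 and 33.1 and then 65.7, 48.1 and 56.1 CPM for ecl3 (SPBC8E4.12c) and 350.4, 351 and 411 and then 234, 238 and 263 CPM for ecl2 (SPBP35G2.16c), log2 changes of 0.88 (SE 0.13, edgeR adjusted p = 0.00149) and -0.60 (SE 0.09, edgeR adjusted p = 0.00184). Mean levels of ecl2 at 0 h and 4 h were 227 ± 17.4 and 279 ± 25.2 CPM, so its mean was highest at 1 h. All 3 genes of the family were called higher at 4 h than at 0 h, against 31.1% of all genes.

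Of 30 genes of the core environmental stress response 2 rose and 3 fell, and 25 were not called. With 1 library left out 2 to 9 rose and 0 to 3 fell, with 0 falls in 4 of those 6 fits and in the fit to all 21 libraries. The glycerol-3-phosphate dehydrogenase gene gut2 rose from 62.5, 68.9 and 59.7 to 148, 147 and 114 CPM and gcd1, annotated as a glucose-6-phosphate dehydrogenase gene, from 14.5, 13.6 and 13.4 to 29.9, 29.5 and 31.2 CPM. Their log2 changes were 1.10 (edgeR adjusted p = 0.00353) and 1.13 (edgeR adjusted p = 0.000256). The calcium ATPase gene cta3 fell at -0.71 (edgeR adjusted p = 0.0317), a call kept in 6 of 12 alternatives, sro1 from 484 ± 58.3 to 346 ± 2.81 CPM and the superoxide dismutase gene sod1 from 2178 ± 270.2 to 1622 ± 29.5 CPM.

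Among genes of mitosis and septation 8 of 25 rose and 0 fell, with a median of 0.25. The glucanase gene eng1, which opens the primary septum at cell separation, went from 606, 649 and 615 to 995, 929.6 and 973 CPM, a log2 change of 0.63 (SE 0.10, edgeR adjusted p = 0.00258). The chitin synthase regulator gene cfh4 and the glucanase gene agn1 had changes of 0.50 and 0.48, calls kept in 6 and 5 of 12 alternatives. The mitotic entry regulators cdr1, wee1 and cdc25 had log2 changes of 0.44, 0.30 and 0.29. Leaving out 1 library gave 2 to 14 rises in this list. Of 19 G1/S genes, the ribonucleotide reductase gene cdc22 and cdt2 rose, at 0.46 and 0.41, and each call was kept in 6 of 12 alternatives.

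Lipid and surface genes gave a small set of rises. Of 20 genes of fatty acid and phospholipid synthesis 6 rose and 0 fell: the phospholipase genes plb2, plb3 and plb1, both fatty acid synthase genes fas1 and fas2, and psd2, a phosphatidylserine decarboxylase gene. For plb2 (SPAC1786.02) the libraries gave 398, 361 and 389 and then 605, 630.1 and 589 CPM, a log2 change of 0.67 (SE 0.06, edgeR adjusted p = 6.45e-05). With 1 library left out 2 to 8 rose, and the calls of plb2 and fas2 were kept in all 12 alternatives and that of plb3 in 7. The list's median was 0.04. Of 21 flocculin and cell-surface genes, 3 rose (1 to 11 with 1 library left out), among them the flocculin gene gsf2 at 0.53 and cbf12 (SPCC1223.13), a transcription factor of the CSL family, which went from 26.6, 26.0 and 27.7 to 83.1, 73.1 and 60.8 CPM at 1.43 (SE 0.12, edgeR adjusted p = 2.07e-05). Of 26 sterol synthesis and hypoxia genes sre2 and sre1 rose and erg7 fell, none by more than 0.31 on the log2 scale. The call of erg7 was kept in none of 12 alternatives and those of sre1 and sre2 in 6 each, and with 1 library left out 0 to 9 genes of this list rose.

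Regulators of growth and transcription were among the rises. Of 21 genes of the TOR pathway and of ribosome gene regulation 4 rose: the kinase genes tor2 and tor1 at 0.37 and 0.34, the TORC2 subunit gene ste20 at 0.34, and stb3 (SPBC1652.01), a DNA-binding factor. With 1 library left out 2 to 8 rose, and the call of ste20 was kept in 6 of 12 alternatives, those of tor2 and stb3 in all 12. For stb3 the libraries gave 56.9, 57.5 and 49.7 CPM at 1 h and 155, 140.2 and 133 CPM at 2 h, with no overlap and a log2 change of 1.38 (SE 0.08, edgeR adjusted p = 8.44e-07). Its mean was 48.5 ± 3.57 CPM at 0 h and 671 ± 13.9 CPM at 4 h. Another transcription factor gene, SPAC2H10.01, went from 16.6, 16.4 and 19.3 to 54.4, 56.0 and 45.2 CPM, at 1.57 (SE 0.14, edgeR adjusted p = 3.24e-05). Of 15 iron acquisition genes the iron-sensing repressor gene fep1 and the ferrichrome synthetase gene sib1 rose, at 0.36 and 0.30, kept in 12 and 8 of 12 alternatives. Of 12 copper and zinc genes the zinc-responsive factor gene loz1 rose, at 0.31, kept in 6 of 12 alternatives.

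A few large rises fell outside these groups. The gene mfs3 (SPBC36.03c), annotated as a transporter of the spermidine family, went from 123, 149 and 119.9 to 482, 423 and 463 CPM, at 1.80 (SE 0.09, edgeR adjusted p = 5.1e-07). The acyl-CoA thioesterase gene the4 (SPBC26H8.11c) went from 46.8, 52.4 and 38.3 to 149.6, 166 and 130.3 CPM, at 1.70 (SE 0.11, edgeR adjusted p = 2.35e-06). Neither gene's replicates overlapped between the times.

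**Figure D3:**
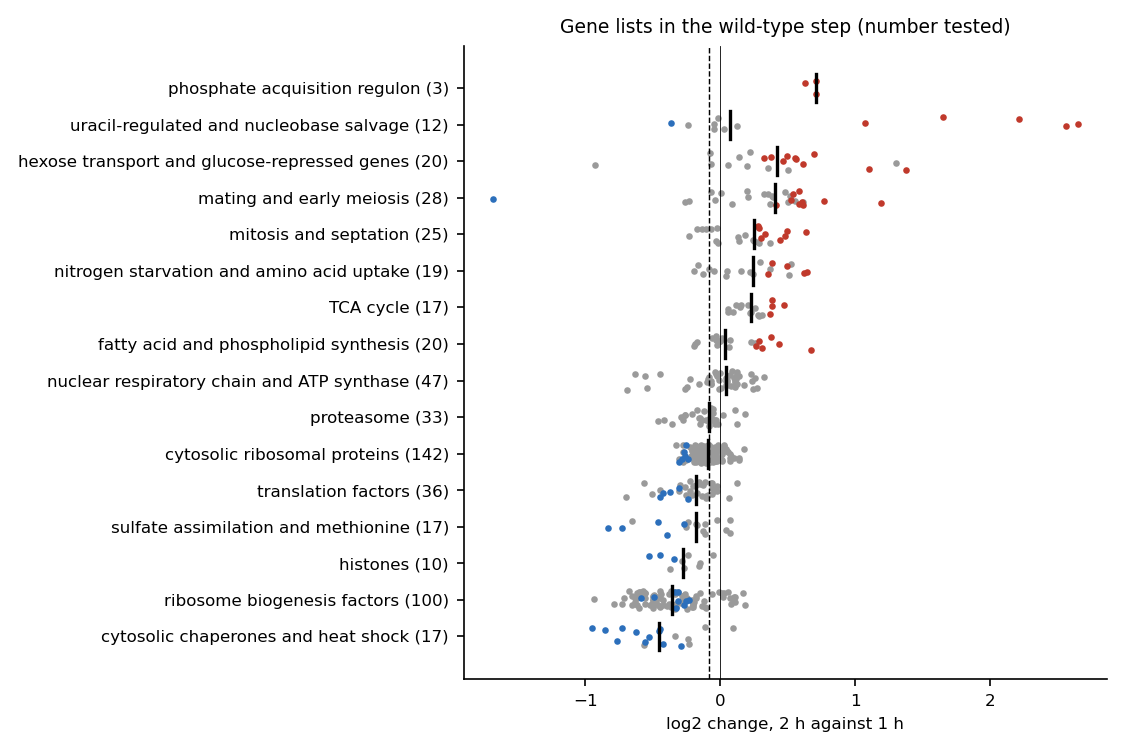
Log2 change from 1 to 2 h of each tested member (points) of 16 gene lists in the wild type, with the number tested in brackets; red and blue points were called higher and lower, grey ones were not, black bars are list medians and the dashed line is the median of all 6066 genes at -0.08. The regulon, the glucose-repressed and the mating lists lie to the right, and the chaperone and ribosome biogenesis lists to the left.

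Most chaperone genes fell in the main fit. Of 17 cytosolic chaperone and heat shock genes 11 were lower and 0 higher, and the median was -0.46. Log2 changes were below 0 for 16 of them, against 3800 of the 6066 genes tested. The Hsp90 gene hsp90 (SPAC926.04c) went from 8142, 8207 and 7528 to 6088, 5887 and 5403 CPM, a log2 change of -0.46 (SE 0.10, edgeR adjusted p = 0.0185), and the Hsp70 gene ssa2 (SPCC1739.13) from 6475, 7269 and 6763 to 4805, 5027 and 4404 CPM, at -0.53 (SE 0.09, edgeR adjusted p = 0.00479). Cofactors of Hsp90 fell with it: wos2 (SPAC9E9.13), the p23 protein, went from 356, 361 and 387 to 132, 208 and 271 CPM at -0.85 (SE 0.22, edgeR adjusted p = 0.0344), the adaptor gene sti1 had a change of -0.76 and the activator gene aha1 of -0.56. The cyclophilin gene wis2 (SPAC1B3.03c), outside the list, went from 338, 342 and 352 to 145, 203 and 219.9 CPM at -0.86 (SE 0.14, edgeR adjusted p = 0.00321). Of the J-domain genes, psi1 had a log2 change of -0.73 and mas5 of -0.44. The called members hsp78, ssc1 and hsp10 are known as mitochondrial chaperones; hsp78 (SPBC4F6.17c) went from 96.8, 98.3 and 116 to 31.4, 58.5 and 70.8 CPM, at -0.95 (SE 0.23, edgeR adjusted p = 0.0277).

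The 2 h libraries differed in how far some of these genes fell. In wos2, hsp78 and wis2 replicate 1 was lowest and replicate 3 highest at 2 h, though all stayed below the 1 h libraries. Between 4 and 11 members of the list were called lower when 1 library was left out. The number was 11 with no low-count filter, 10 with DESeq2's own test and 7 with DESeq2 size factors or only the 6 libraries compared. It was 6 with a replicate term and 5 with all 21 libraries. The calls of wos2, hsp78 and sti1 were kept in 5, 6 and 6 of 12 alternatives. The list's median lay between -0.49 and -0.34 in the 6 fits without 1 library. Of 8 genes of endoplasmic reticulum chaperones and the unfolded protein response, the oxidase gene ero11 fell, at -0.37 (edgeR adjusted p = 0.00251).

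**Figure D4:**
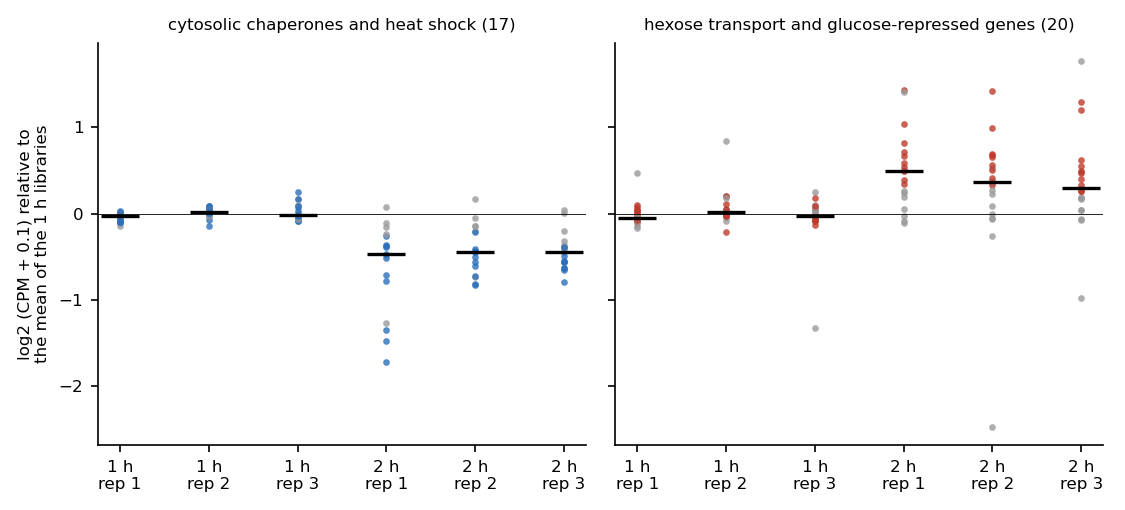
Log2 of (CPM + 0.1) relative to the mean of the 3 libraries at 1 h, for each tested member (points) of the chaperone list (left, 17 genes) and the glucose-repressed list (right, 20 genes) in the 6 wild-type libraries; blue and red members were called lower and higher, grey were not, and black bars are medians over members. The chaperone medians are low in all 3 libraries at 2 h, with the lowest members in replicate 1 at 2 h, and the glucose-repressed medians are high in all 3.

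Some genes of sulfate assimilation and methionine synthesis fell. Of 17 genes 5 were lower and 0 higher, with a median of -0.18. The homocysteine synthase gene met17 (SPBC428.11) went from 309, 330.0 and 296 to 179.6, 187 and 158 CPM, with no overlap and a log2 change of -0.84 (SE 0.08, edgeR adjusted p = 6.64e-05). Outside the list, the sulfate transporter gene sul2 (SPAC869.05c) went from 294, 316 and 269.7 to 180.3, 183 and 145 CPM, at -0.79 (SE 0.10, edgeR adjusted p = 0.000624). The siroheme synthesis gene met1 fell from 213 ± 12.9 to 129 ± 19.1 CPM and the sulfate adenylyltransferase gene sua1 from 1546 ± 88.1 to 1121 ± 139 CPM, log2 changes of -0.73 (edgeR adjusted p = 0.00149) and -0.46 (edgeR adjusted p = 0.00865). In the amino acid list 2 of 53 fell, cys2 (SPBC106.17c), annotated as a homoserine O-acetyltransferase gene, at -0.56 (edgeR adjusted p = 0.00118), and the serine synthesis gene ser3 at -0.32 (edgeR adjusted p = 0.0131), while arg4 rose at 0.36 (edgeR adjusted p = 0.0431). The calls of cys2, ser3 and arg4 were kept in 12, 7 and 6 of 12 alternatives, and 0 to 18 genes of the list rose when 1 library was left out. Mean levels of met17 at 0 h and 4 h were 169.5 ± 10.2 and 119 ± 8.98 CPM, so the 1 h level was the highest of the 4 times. Leaving out 1 library gave 3 or 4 falls in the sulfate list.

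Other falls among the 10 largest in protein-coding genes were less even across replicates. The centromere protein gene cnp3 (SPBC1861.01c) went from 24.5, 27.0 and 28.5 to 9.76, 13.3 and 18.8 CPM, at -0.93 (edgeR adjusted p = 0.0314), and mbf1 (SPBC83.17), a transcriptional coactivator gene, from 69.3, 75.1 and 78.5 to 29.7, 44.1 and 54.9 CPM, at -0.79 (edgeR adjusted p = 0.0296). The remaining 3 were slm3 (SPAC23H4.04), which encodes a tRNA-modifying enzyme, at -0.96 (edgeR adjusted p = 0.0366), bmc1 (SPBC2A9.10), a Bin3-family regulator gene, at -0.89 (edgeR adjusted p = 0.0475), and adi1 (SPBC887.01), of methionine salvage, at -0.81 (edgeR adjusted p = 0.0399). Each of these 5 calls was kept in 5 of 12 alternatives, and in cnp3, mbf1, slm3, bmc1 and adi1 replicate 3 at 2 h lay nearest to the 1 h libraries.

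Few genes of ribosome production were called. Of 100 ribosome biogenesis factors 9 fell and 0 rose, and the median log2 change was -0.36. It was below 0 for 88 of the 100, against 3800 of the 6066 genes tested. The factor gene ytm1 (SPAC890.04c) went from 106, 103 and 113 to 73.2, 76.8 and 79.3 CPM, at -0.49 (SE 0.06, edgeR adjusted p = 0.000502), a call kept in all 12 alternatives. Without replicate 3 at 2 h, 47 fell and 3 rose; without any other single library 1 or 2 fell. Of 142 cytosolic ribosomal protein genes 6 fell, and their median of -0.09 was near the -0.08 of all genes; it was -0.02 with DESeq2 size factors and 0.02 in the fit to all 21 libraries and without replicate 3 at 2 h, so no direction is given for them. Many ribosomal protein genes are pairs of near-identical copies whose reads the counting may have divided, and the same holds for tef101, tef102 and tef103 among the translation factors. Of 36 translation factors 5 fell, tef102, tif301, tef103, tef101 and tif11, with changes from -0.45 to -0.24. Leaving out 1 library gave 2 to 8 falls, DESeq2 size factors 3 and all 21 libraries 1, and the call of tif301 was kept in 7 of 12 alternatives. Of 35 genes of RNA polymerases I and III, rpc19 fell at -0.30, kept in 2 of 12 alternatives, and the median was -0.28.

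All 10 histone genes had log2 changes below 0, as had 3800 of the 6066 genes tested. Of the 10, 3 were called lower: hhf2 from 1518 ± 78.4 to 1054 ± 68.8 CPM, hhf3 from 1248 ± 85.7 to 918 ± 47.0 CPM and hht1 from 1805 ± 129 to 1423 ± 55.3 CPM. In these 3 genes the mean level was highest at 1 h. For hhf2 it was 894 ± 136 CPM at 0 h and 1293 ± 35.8 CPM at 4 h. All 10 histone genes were called higher at 4 h than at 0 h, against 31.1% of all genes. Histone genes are also near-identical copies, and 1 to 3 were called when 1 library was left out; none was called in the fit to all 21 libraries. Of 22 genes of RNA 3' processing and termination, the process that acts on the regulon's upstream RNAs, seb1 fell at -0.27 (edgeR adjusted p = 0.0164), kept in 3 of 12 alternatives. None of 33 proteasome genes and none of 9 thiamine-regulated genes was called in the main edgeR fit. Without replicate 3 at 2 h, 2 proteasome genes rose and 1 fell, and 2 thiamine-regulated genes rose. With only the 6 libraries compared, 1 gene rose in each list. With DESeq2's own test, 0 of the proteasome genes, 0 of the thiamine-regulated genes and 6 of the respiratory genes were called, and 4, 2 and 8 had an unadjusted p under 0.05 in edgeR.

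Non-coding genes made up 22 of the 309 rises and 23 of the 179 falls, against 1094 non-coding genes tested (2.01% and 2.10% of them). Of those with at least 10 CPM, the largest rise was that of SPBPB21E7.08, from 17.1, 19.0 and 18.2 to 53.8, 59.4 and 69.8 CPM, at 1.75 (SE 0.12, edgeR adjusted p = 2.01e-06). SPNCRNA.1305, which overlaps it, went from 3.44, 3.88 and 5.56 to 12.7, 10.9 and 9.35 CPM, at 1.36 (edgeR adjusted p = 0.00149). SPNCRNA.935 went from 109.8, 132 and 99.1 to 297, 313 and 355 CPM (edgeR adjusted p = 2.95e-06), while the overlapping SPNCRNA.934 fell at -0.75 (edgeR adjusted p = 0.0423). SPNCRNA.577, which overlaps the coding gene SPBC1652.02, had 2 h libraries at 7.89, 15.8 and 24.1 CPM against 7.72, 6.55 and 7.08 CPM at 1 h, so its replicate 1 at 2 h was barely above the 1 h libraries; its change was 1.16 (edgeR adjusted p = 0.0484). The other falls named by the rule were SPNCRNA.1461, SPNCRNA.1026 and SPNCRNA.771, at -0.71, -0.53 and -0.47; they overlap pfd1, fus1 and arb1. The strand setting of the counting is not given in the sources used here, so reads of an antisense RNA and of the gene it overlaps cannot be told apart. The calls of SPNCRNA.577, SPNCRNA.934, SPNCRNA.1461, SPNCRNA.1026 and SPNCRNA.771 were kept in 5, 4, 4, 1 and 2 of 12 alternatives.

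The change from 1 to 2 h was set against the change before it and the change after it. The log2 change from 1 to 2 h minus that from 0 to 1 h was above 0 for 355 genes (5.85%) and below 0 for 320 (5.28%) at adjusted p under 0.05 in edgeR's test of the difference. The change from 2 to 4 h minus that from 1 to 2 h was above 0 for 461 genes (7.60%) and below 0 for 420 (6.92%). These differences share the 1 h or 2 h libraries with the comparison itself. The last interval is 2 h long and the others 1 h, and the changes are not divided by time, so a constant rate would also give a difference in this second test. For urg1 the 3 changes in order were -4.11, 2.65 and 1.00, for met17 0.88, -0.84 and -0.55, for pho1 2.02, 0.71 and 1.16, and for stb3 0.17, 1.38 and 2.24. The difference between the first pair was called for urg1 at 6.76 (edgeR adjusted p = 5.67e-08), for met17 at -1.71 (edgeR adjusted p = 6.9e-06) and for pho1 at -1.31 (edgeR adjusted p = 0.000171).

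The wild type at 4 h against 0 h uses none of the 6 libraries of this comparison, though both take their error from the same fit. Of the 309 genes that rose from 1 to 2 h, 197 (63.8%) were higher at 4 h than at 0 h, against 31.1% of all genes, and 33 (10.7%) were lower, against 29.3%. Of the 179 that fell, 115 (64.2%) were lower at 4 h, against 29.3% of all genes, and 30 (16.8%) were higher, against 31.1%. The 33 genes that rose here and were lower at 4 h include urg1, urg2, urg3, uck2 and urh1, with changes of -0.46, -0.60, -0.55, -0.53 and -0.69 at 4 h against 0 h. Among the 30 that fell here and were higher at 4 h were ssa1, an Hsp70 gene, at -0.62 from 1 to 2 h and 1.51 at 4 h against 0 h, and the histone gene hhf2, at -0.53 and 0.53.

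HASX was compared over the same hour. In its 6 libraries at 1 and 2 h the deleted genes had 49 to 91 counts for aps1, 9 to 66 for siw14 and 637 to 945 for pqr1, against 3380 to 4576, 2689 to 4421 and 5494 to 7284 counts in the 6 wild-type libraries. The allele of asp1 cannot be told from its counts, which were 1130 to 1866 in HASX and 1007 to 1967 in the wild type. From 1 to 2 h, 1176 genes were higher (19.0% of 6179 tested) and 1237 lower (20.0%) in HASX. Of the 309 genes that rose in the wild type, 48 (15.5%) were higher in HASX and 110 (35.6%) lower. Of the 179 that fell, 36 (20.1%) were lower in HASX and 29 (16.2%) higher, which is close to the shares among all genes. The difference between the genotypes, HASX change minus wild-type change, was above 0 for 1021 genes (16.5%) and below 0 for 1338 (21.7%) at edgeR adjusted p under 0.05. With 1 library left out these counts were 718 to 1520 and 1069 to 1835. HASX was kept out of the wild-type fit because, in earlier results of these data, a HASX library stood apart from its group. The spread of the HASX replicates is not shown here.

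Of the 10 protein-coding genes named for the largest wild-type rises, 8 differed between the genotypes. In HASX the log2 changes were -1.43 for urg1, -1.15 for urg2, -1.51 for urg3 and -0.94 for uck2, all called lower, where the wild type rose. The differences ranged from -4.19 for urg1 (SE 0.24, edgeR adjusted p = 3.13e-10) to -3.27 for urg3 (SE 0.18, edgeR adjusted p = 3.13e-10). The strains also differ in ura4, a gene of de novo pyrimidine synthesis whose marker HASX carries: each HASX library had 9413 to 15923 counts of it and each wild-type library 0, and for the uracil-regulated genes this difference cannot be told apart from the other alleles. For the regulon the HASX changes were 0.23 for pho1 (edgeR adjusted p = 0.245), 0.11 for pho84 (edgeR adjusted p = 0.535) and -0.64 for tgp1 (edgeR adjusted p = 0.000632), and the difference from the wild type was called for all 3. For pho1 that difference, -0.60 (edgeR adjusted p = 0.0364), was kept in only 7 of its 17 alternatives, and that of cnp3, which fell in the wild type, in 10 of 17. No difference was called for SPAC2H10.01, SPAPB1A11.03, bmc1 and sul2, although 2, 1, 3 and 0 of 17 alternatives called one. The dihydroxyacetone kinase gene dak2 and the meiosis gene mei2 rose in HASX as well, by 1.31 and 0.93 on the log2 scale, and no difference from the wild type was called for them, at -0.18 (SE 0.19) and -0.36 (SE 0.18). In the chaperone list 7 of 17 genes rose in HASX and 1 fell, against 19.0% and 20.0% of all genes. Named genes were picked by the size of their wild-type change, which enters the difference, so their differences are a description of these genes.

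**Figure D5:**
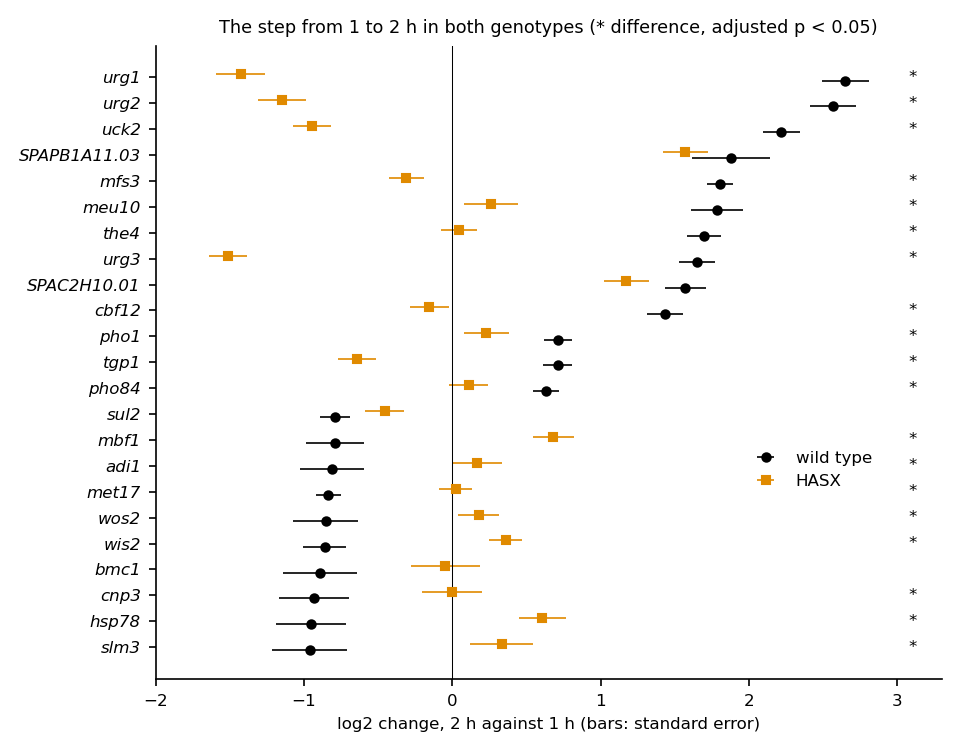
Log2 change from 1 to 2 h without phosphate in the wild type (black circles) and in HASX (orange squares) for the 3 regulon genes and for the largest wild-type changes of protein-coding genes (10 in each direction); bars are standard errors and a star marks a difference between the genotypes at edgeR adjusted p under 0.05. The urg genes and uck2 lie on opposite sides of 0 in the genotypes, and no difference was called for SPAPB1A11.03, SPAC2H10.01, sul2 and bmc1.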

How the data were processed

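PolyA RNA was measured by stranded, paired-end RNA sequencing, per the labels. The authors deposited counts as whole numbers per gene and library, in a table for the wild type and a table for HASX, whose columns were matched to the labels by name. Per the submitters' processing notes, the tools were HTSeq 0.10.0, HISAT2 2.1.0, DESeq2 and SAMtools, and the build was ASM294v2; their roles and settings are not given in the sources used here, the strand setting of the counting included. The authors' tables of fold changes were not used. Names, types and neighbours of genes came from the RefSeq annotation of ASM294v3, with 6836 identifiers matched by locus tag, 12 by synonym and 140 by neither; no coordinate was taken from it.

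Counts were analysed with edgeR 4.0.16 in R 4.3.3. The low-count filter filterByExpr left 6066 genes and took out 922. Libraries were scaled with TMM, and the 12 wild-type libraries entered a quasi-likelihood fit with a mean for each time. It left 8 residual degrees of freedom, and the common coefficient of variation (biological) was 0.142. P-values were adjusted over all genes tested by the Benjamini-Hochberg method. The genotype difference was fitted to the 12 libraries of both genotypes at 1 and 2 h, with 6179 genes. Alternatives were DESeq2 size factors, DESeq2 1.42.0's own test, no low-count filter, a replicate term, other sets of libraries, and each library left out. The fits were tested on simulated data.

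The genes, the 35 gene lists and the tests were chosen with earlier results of these data known. Named genes are the 3 regulon genes, for protein-coding genes the largest called changes, 10 in each direction, with at least 10 CPM in the higher group and no overlap of replicates, up to 3 called genes per list, and the 4 higher and 4 lower non-coding genes by the same limits; others were chosen after their values were seen, among them urh1, list members beyond those 3, and the genes compared across times. Library totals of 17481009 to 23680823 counts limit precision for genes of few CPM. Promoter sequences were not used here.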

Additional observations from a re-analysis of the deposited data

Results flagged for a closer look

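The change from 1 to 2 h differed between HASX and the wild type at edgeR adjusted p under 0.05 for many genes: HASX minus wild type was above 0 for 1021 genes and below 0 for 1338. Among the 23 genes named for the regulon or for the size of their wild-type change, 19 had such a difference. It was below 0 for pho1 (-0.60), pho84 (-0.63), tgp1 (-1.46), urg1 (-4.19), urg2 (-3.83), uck2 (-3.27), mfs3 (-2.22), meu10 (-1.63), the4 (-1.76), urg3 (-3.27) and cbf12 (-1.71). It was above 0 for slm3 (1.21), hsp78 (1.48), cnp3 (0.85), wis2 (1.13), wos2 (0.95), met17 (0.74), adi1 (0.89) and mbf1 (1.39), all on the log2 scale. The calls for pho1 and cnp3 were kept in 7 and 10 of their 17 alternatives, and those of the other 17 genes in all of theirs.

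The change from 1 to 2 h also differed from the neighbouring changes in the wild type. Minus the change from 0 to 1 h it was above 0 for 355 genes and below 0 for 320, and the change from 2 to 4 h, an interval of 2 h, minus it was above 0 for 461 genes and below 0 for 420.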

How the results depend on the processing

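Of the 100 named genes, 41 kept their call from 1 to 2 h in all of their alternatives, and no named gene changed direction in any of them. All were called genes whose replicates did not overlap, which left little room for a change of direction. The 309 rises and 179 falls became 86 falls (7 by at least 2-fold) with DESeq2 size factors; 567 rises and 2 falls of at least 2-fold with DESeq2's test; 621 rises, 107 falls and 6 falls of at least 2-fold with only the 6 libraries compared; and 43 falls (2 by at least 2-fold) with all 21 libraries. With 1 library left out, rises ranged from 138 to 839, falls from 54 to 640, rises of at least 2-fold from 32 to 53 and falls of at least 2-fold from 3 to 159. Of the named genes, 49 to 87 kept their call. Of the list genes, 76 rose and 57 fell; 22 fell with size factors, 138 rose with DESeq2's test, 141 rose with only the 6 libraries and 13 fell with all 21. With 1 library left out 38 to 189 list genes rose and 18 to 103 fell.

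Replicate numbers were not used to pair the samples in the main fit. Deviations of same-numbered libraries at 1 and 2 h correlated at 0.18, 0.05 and 0.25 across genes. Those of libraries with unlike numbers correlated at -0.21 to 0.07. Deviations were taken from the mean of each group, so these values are not independent of those of same-numbered libraries. Whether the numbers mark a pairing was not tested. With the replicate block there were 206 rises, 84 falls and 5 falls of at least 2-fold, 61 of the named genes kept their call, and 29 list genes fell.

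Against the change from 0 to 1 h, the 320 negative differences became 153 with size factors, 205 with DESeq2's test and 72 with all 21 libraries. Leaving out 1 library gave 188 to 527 positive and 127 to 665 negative differences. For the change from 2 to 4 h, the 461 positive differences became 259 with size factors and 161 with all 21 libraries, and leaving out 1 library gave 182 to 382 positive and 289 to 983 negative ones. With 1 library left out the genotype difference was above 0 for 718 to 1520 genes and below 0 for 1069 to 1835. At 4 h against 0 h, 159 to 222 of the risen genes were higher, 28 to 47 lower, and of the fallen genes 111 to 119 were lower and 22 to 31 higher. The cause of these shifts was not tested. Precision is limited by 3 libraries per group and, for genes under 10 CPM, by depth.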

Other observations

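Some genes that changed lie next to each other. In the order of protein-coding genes in the ASM294v3 annotation, 6 stretches held 3 or more neighbouring genes called in the same direction; they were looked for after the values were seen and were not tested. The longest, of 5 genes on chromosome I, is urg2, urg3, urg1, toe1 and uck2, all higher at 2 h. In it toe1 rose from 44.6, 47.4 and 45.5 to 88.6, 85.4 and 74.3 CPM, a log2 change of 0.85. A stretch of 4 genes on chromosome II is SPBC8E4.03, ecl3, pho84 and pho1, all higher. SPBC8E4.03, annotated as an agmatinase gene, rose from 229.5 ± 32.1 to 373 ± 25.2 CPM (SD, n = 3), a log2 change of 0.70. Also on chromosome II, mfs3 lies beside SPBC36.02c and SPBC36.01c, which rose by 0.58 and 0.65 on the log2 scale, and zfs1, SPBPB7E8.01 and SPBPB7E8.02 rose together. There SPBPB7E8.01 rose from 605, 639 and 575 to 1228, 1195 and 1219.6 CPM, a log2 change of 1.00. The stretches of urg2 to uck2 and of SPBC8E4.03 to pho1 were called whole in all 12 alternatives, that of mfs3 in 6 and that of zfs1 in 8. The 2 stretches of falling genes, SPAC4G9.22, erg7 and ssa1 on chromosome I and mtd1, srp40 and rpl401 on chromosome II, were called whole in none of the 12.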
